A study of Mus musculus with 9 samples.

Results

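Inhibition in the retina is carried by γ-aminobutyric acid (GABA) and glycine, and the transcripts of 9 genes that make, package, take up or break down these transmitters were followed through the cells of the mouse retina and retinal pigment epithelium (RPE). The 9 genes, out of 37725 counted, share these known roles and were chosen with earlier results of these data known. Their levels did not decide which cells were placed in which type, but the gate thresholds were set after seeing the data. *Gad1* and *Gad2* encode the enzymes that make GABA from glutamate. *Slc32a1* encodes the vesicular transporter that loads GABA or glycine into synaptic vesicles. *Slc6a11*, *Slc6a12* and *Slc6a13* encode GABA transporters of the plasma membrane (GAT3, BGT1 and GAT2), *Slc6a9* and *Slc6a5* the glycine transporters GlyT1 and GlyT2, and *Abat* the mitochondrial transaminase that breaks GABA down.

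The tissue is labelled as retina, and the data were single-cell RNA counts, as unique molecular identifiers (UMIs), of 31089 cells from 9 mice. All 9 mice were RPE65-ERT2-Cre.miR-211fl.miR-204fl animals, in which a tamoxifen-inducible Cre recombinase made in the RPE can delete the floxed genes of miR-211 and miR-204. Injections began at postnatal day 28 and ran for 5 days, and the cells were collected 6 months later. The 4 control mice (mice 1 to 4) were given the corn oil vehicle, and the 5 dKO mice (mice 5 to 9) were given 75 mg/kg tamoxifen in corn oil, so that deletion and exposure to the drug cannot be told apart. The Cre is driven in the RPE, and the design aims the deletion at that type and not at amacrine cells, horizontal cells or Müller glia. The counts do not measure the microRNAs, and the deletion was checked here in no cell type. Retinas of a mouse were pooled into 1 sample, and the labels give dKO mice 6 and 7 the same animal number, although they are separate samples.

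Each mouse gave 1620 to 4704 cells and 15079143 to 66528160 UMIs, and the median cell of a mouse held 4775 to 10340 UMIs. Control mouse 4 and dKO mice 5 and 7 were shallower and held more rods than the other mice (rods were 31.9% to 85.7% of cells by mouse). No cell identifier was shared between mice. Cells were placed in 19 types by the UMIs of marker genes, none of which is among the 9. The markers were detected in their types, with the exceptions that *Best1* was seen in 0.781% of RPE cells (*Rpe65* in 99.6%) and *Tfap2c* in 3.79% of amacrine cells on the *Tcf4* side. Rod markers, a measure of free RNA from the most frequent cell, came to 2.70 to 4.61 UMIs per 10000 in the types other than rods, against 137 in rods.

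Neurons that release GABA carry both a glutamate decarboxylase and the vesicular transporter, while neurons that release glycine gather it from outside the cell through GlyT1 or GlyT2 and share the same vesicular transporter. Amacrine cells are the main inhibitory neurons of the inner retina. Most use either GABA or glycine. Starburst amacrine cells are cholinergic and GABAergic, AII amacrine cells are glycinergic and pass rod signals on to cone bipolar cells, and Müller glia clear transmitter from the tissue. Amacrine cells were told apart into 5 types by markers. They were starburst cells (109 cells), AII-like cells (464 cells), *Ebf*-positive cells (540 cells) and the other amacrine cells. The last were split by which of the transcription factor genes *Meis2* and *Tcf4* gave more UMIs into a *Meis2* side (1501 cells) and a *Tcf4* side (449 cells). Starburst, AII-like and *Ebf*-positive cells could also come from cells that met no other gate, the general amacrine gate included. *Ebf*-positive cells had to hold a UMI of the amacrine marker *Pax6*. On that split, 101 of 1950 cells (5.18%) had *Meis2* and *Tcf4* UMIs within 2-fold of each other. The cut for AII-like cells was less sharp than for the other types, and 145 of the 464 cells lay within 25% above it.

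All 9 genes lie on the plus strand. In GRCm39, *Gad1* spans chr2:70383416-70432372, *Gad2* chr2:22511862-22583886 and *Slc32a1* chr2:158452605-158464883. *Slc6a12* (chr6:121320035-121342734) lies downstream of *Slc6a13* (chr6:121277186-121316121), and *Slc6a11* is at chr6:114108200-114226913 on the same chromosome. *Slc6a9* is at chr4:117691703-117732395, *Slc6a5* at chr7:49559894-49613604 and *Abat* at chr16:8331233-8439996. Several of these genes overlap a gene on the opposite strand, *Gad1* with *Gad1os*, *Slc32a1* with *Gm14204*, and *Slc6a9* with *B4galt2*, *Ccdc24* and *Gm17114*. Whether reads were counted by strand is not given in the sources used here, and where it was not, reads from such partners cannot be told apart.

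*Gad1* and *Gad2* encode enzymes for the same transmitter, and their counts part from each other in starburst cells, as described further on. The 250 bases before the start of each are therefore shown, from RefSeq in build GRCm38.p6, 5′ to 3′ on the plus strand (*Gad1* chr2:70561879-70562128, *Gad2* chr2:22622077-22622326). Capitals mark matches to 3 short motifs, each searched on both strands. They were the TATA box core TATAAA, the E-box CAGATG (a form that basic helix-loop-helix factors bind) and the promoter box CCAAT. No motif contains another.

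Gad1: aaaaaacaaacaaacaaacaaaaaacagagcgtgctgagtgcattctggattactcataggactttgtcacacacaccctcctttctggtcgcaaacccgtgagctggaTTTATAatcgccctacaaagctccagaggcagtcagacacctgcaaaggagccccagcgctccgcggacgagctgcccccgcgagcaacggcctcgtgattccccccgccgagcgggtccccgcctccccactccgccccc

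Gad2: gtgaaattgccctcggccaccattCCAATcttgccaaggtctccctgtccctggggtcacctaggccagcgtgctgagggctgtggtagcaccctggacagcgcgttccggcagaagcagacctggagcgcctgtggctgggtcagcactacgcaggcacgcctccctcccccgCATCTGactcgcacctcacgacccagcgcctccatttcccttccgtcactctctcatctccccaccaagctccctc

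The *Gad1* window held a TATAAA match on the other strand, 141 bases before the start, and no match to the remaining motifs. The *Gad2* window held a CAGATG match on the other strand 76 bases before the start and a CCAAT match 226 bases before it. G and C made up 58% of the *Gad1* window and 64% of the *Gad2* window. Among 32851 windows of the same length, 12.4% held TATAAA, 14.4% CAGATG and 33.9% CCAAT. Of the 8 members with a window in the RefSeq table, 1 held TATAAA (*Gad1*), 4 held CAGATG (*Gad2*, *Slc6a12*, *Slc6a9* and *Slc6a5*) and 2 held CCAAT (*Gad2* and *Slc6a13*). *Abat* had no window.

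Levels (CPM) are UMIs of a gene per 1000000 UMIs of the type in a mouse, averaged with each mouse counted once and given as mean ± SD over mice with at least 10 cells of the type. They are not corrected for transcript length and are compared between types within 1 gene only. Types next to each other in the order of levels were compared within mice by an exact sign-flip permutation test, two-sided, on log2(CPM + 1). The order came from the same values, so neither the pairs nor their direction were set in advance. The exact p values below are unadjusted and are given as description. There were 144 such pairs. Where every mouse moves the same way the smallest p is 0.0156 with 7 mice, 0.00781 with 8 and 0.00391 with 9. After Benjamini-Hochberg adjustment over the 144 pairs the lowest adjusted p was 0.0938 (exact tests), so that no neighbouring pair passed 0.05 on this test alone. Fits across all genes follow further on for some pairs of types.

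*Gad1* was highest in starburst cells and in the other amacrine cells of both sides, and low elsewhere. Starburst cells held 778 ± 93.2 CPM (n = 7 mice, lowest 647, median 763, highest 932). The *Meis2* side held 571 ± 49.2 CPM (n = 8, 505 to 667) and the *Tcf4* side 531 ± 95.1 CPM (n = 7, 368 to 651). Starburst cells were above the *Meis2* side in 7 of 7 mice by 0.47 on the log2 scale (exact p = 0.0156), whereas the *Meis2* and *Tcf4* sides were not separated (exact p = 0.406). The next type in the order, rod bipolar cells, held 32.4 ± 26.9 CPM, and the *Tcf4* side was above it by 4.32 on the log2 scale in 7 of 7 mice. Horizontal cells held 12.5 ± 10.1 CPM, rods 7.89 ± 2.39 CPM, *Ebf*-positive cells 6.98 ± 6.92 CPM and AII-like cells 2.53 ± 1.75 CPM. Rods are not known to make GABA and were taken as the background, and the *Gad1* levels of *Ebf*-positive and AII-like cells lay below it. In cells thinned to 4000 UMIs, 2.02% of rods had a *Gad1* UMI.

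*Gad2* followed a different order, with the *Meis2* side at the top and starburst cells near 0. The *Meis2* side held 301 ± 37.3 CPM (n = 8, lowest 248, median 300.3, highest 355) and the *Tcf4* side 155 ± 22.6 CPM (n = 7, 114 to 180). The difference between the sides was 0.93 on the log2 scale, in the same direction in 7 of 7 mice (exact p = 0.0156). *Ebf*-positive cells held 29.2 ± 12.7 CPM, 2.27 below the *Tcf4* side on the log2 scale (exact p = 0.0156), and ganglion cells 13.8 ± 9.69 CPM. Starburst cells held 1.02 ± 1.29 CPM of *Gad2*, from 3 UMIs in all, with 3 UMIs or fewer in 7 of 7 mice. Among cells thinned to 4000 UMIs, 0.926% of starburst cells and 60.8% of cells on the *Meis2* side had a *Gad2* UMI.

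**Figure D1:**
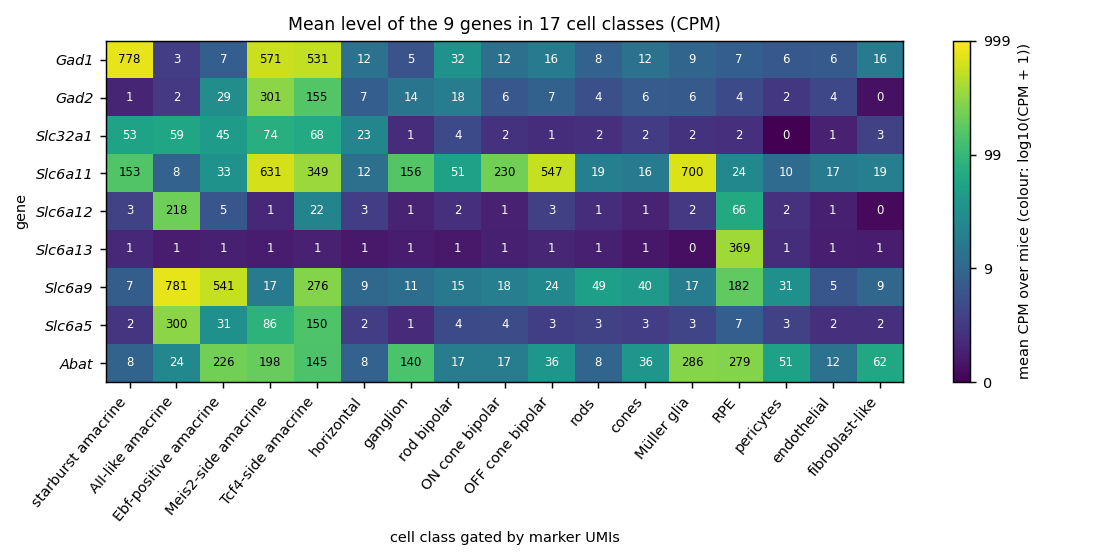
Heat map of the mean level of each of the 9 genes (rows) in 17 cell types (columns), in CPM averaged over mice, with the colour on a log10(CPM + 1) scale. *Gad1* reaches 778 CPM in starburst cells where *Gad2* stays at 1.02 CPM, *Slc6a13* exceeds 1.48 CPM in RPE cells alone (369 CPM), and *Slc6a9*, *Slc6a5* and *Slc6a12* are highest in AII-like cells.

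The balance between the decarboxylases also varied by amacrine type. Of all *Gad1* and *Gad2* UMIs of a mouse, without correction for length, *Gad1* made up 99.9 ± 0.183% in starburst cells (n = 7, 2603 *Gad1* UMIs against 3 of *Gad2*). It made up 77.1 ± 4.49% on the *Tcf4* side (n = 7, 67.1% to 79.7%) and 65.5 ± 3.77% on the *Meis2* side (n = 8, 58.7% to 70.4%, 23232 against 12453 UMIs). In the *Ebf*-positive cells, where both genes were low, the share was 18.9 ± 14.0% (2.38% to 35.4%), and in ganglion cells 27.1 ± 22.9%. The starburst mice did not overlap with those of any other amacrine type in this share. The *Meis2* and *Tcf4* ranges overlapped across mice, but within each mouse with at least 10 cells of both, the share was higher on the *Tcf4* side. It was 79.7% against 70.4% in dKO mouse 7 and 67.1% against 58.7% in dKO mouse 9. This difference within mice was not tested.

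**Figure D2:**
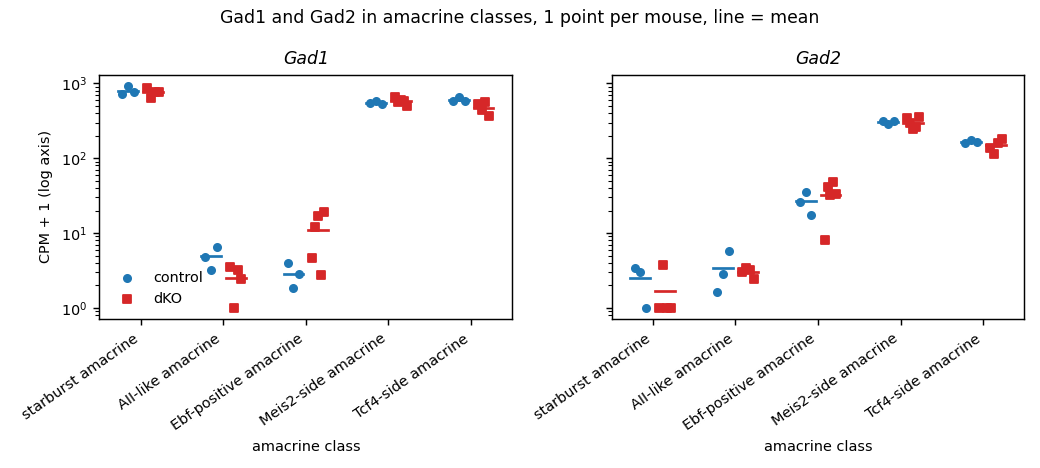
Level of *Gad1* (left) and *Gad2* (right) in the 5 amacrine types, as CPM + 1 on a log axis, with 1 point per mouse (control and dKO mice side by side) and a line at the mean of each group. Starburst mice lie between 647 and 932 CPM for *Gad1* and near the bottom of the axis for *Gad2*, while the *Meis2* side is high for both.

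*Slc32a1* was present in all 5 amacrine types and, at a lower level, in horizontal cells. The *Meis2* side held 74.3 ± 11.5 CPM, the *Tcf4* side 68.0 ± 10.5, AII-like cells 58.5 ± 5.94, starburst cells 53.3 ± 10.9 and *Ebf*-positive cells 44.6 ± 7.22 CPM. No neighbouring pair among these 5 was separated (exact p = 0.203, 0.0938, 0.328 and 0.156). Horizontal cells, which carry the vesicular transporter in the outer retina, held 22.9 ± 7.16 CPM (n = 7, 15 to 36.7), 0.99 below *Ebf*-positive cells on the log2 scale and 2.32 above rod bipolar cells, each in 7 of 7 mice (exact p = 0.0156). All other types stood at 3.77 CPM or less. Pericytes had 0 *Slc32a1* UMIs in 8 mice and 166 cells. The overlapping antisense gene *Gm14204* was also highest in these types, with 163 CPM in AII-like cells, 95.2 on the *Tcf4* side, 65.3 in starburst cells and 31.1 in horizontal cells.

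Among the GABA transporters, *Slc6a11* had the widest distribution and *Slc6a13* the narrowest. *Slc6a11* held 700 ± 102 CPM in Müller glia (n = 9, lowest 530, median 741, highest 827), 631 ± 66.3 CPM on the *Meis2* side (n = 8, 530 to 726) and 547 ± 106 CPM in OFF cone bipolar cells (n = 9, 399 to 714). Neither neighbouring pair among these 3 was separated (exact p = 0.102 and 0.0703). The *Tcf4* side followed at 349 ± 46.3 CPM and ON cone bipolar cells at 230 ± 44.99 CPM, each below the type before it (exact p = 0.0156). Ganglion cells held 156 ± 27.0 CPM and starburst cells 153 ± 34.3 CPM, which were not separated (exact p = 0.359). AII-like cells were at 7.76 ± 2.23 CPM, under the 18.9 CPM of rods. Thinned to 4000 UMIs, 91.2% of Müller glia had a *Slc6a11* UMI (95% exact Clopper-Pearson interval 89.8% to 92.4%) against 5.96% of rods. All 32 astrocytes kept at that depth had one (100%, interval 89.1% to 100%).

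*Slc6a12* was concentrated in AII-like cells. They held 218 ± 20.3 CPM (n = 7, lowest 201, median 207, highest 254), against 65.9 ± 25.4 CPM in RPE cells (n = 7, 28.6 to 107), 21.8 ± 6.15 CPM on the *Tcf4* side and 1.14 CPM on the *Meis2* side. AII-like cells were above RPE cells in every mouse (exact p = 0.0156). RPE cells were above the *Tcf4* side in 6 of 7 mice (exact p = 0.0312).

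*Slc6a13* was high in RPE cells, at 369 ± 53.7 CPM (n = 7, lowest 270, median 372, highest 431). No other type exceeded a mean of 1.48 CPM, and the step down to the next type was 7.69 on the log2 scale in 7 of 7 mice. In cells thinned to 4000 UMIs, 70.3% of RPE cells had a *Slc6a13* UMI (interval 63.1% to 76.8%; 82.8% before thinning), against 0.0508% of Müller glia. The neighbouring gene *Slc6a12*, downstream on the chromosome, shared the RPE with it but not the AII-like cells. There *Slc6a13* was at 0.709 ± 0.821 CPM, with 2.43 CPM in the highest mouse.

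The glycine transporters both peaked in AII-like cells. *Slc6a9* held 781 ± 74.6 CPM there (n = 7, lowest 660, median 764, highest 905), 541 ± 111 CPM in *Ebf*-positive cells (n = 8, 406 to 691) and 276 ± 56.0 CPM on the *Tcf4* side (n = 7, 201 to 348). Each type was above the next by 0.51 and 1.01 on the log2 scale (exact p = 0.0156 both times). RPE cells came next with 182 ± 26.1 CPM (n = 7, 148 to 222), 0.58 below the *Tcf4* side (exact p = 0.0156) and 1.82 above rods. Rods held 48.6 ± 7.98 CPM and cones 40.4 ± 10.01 CPM, while Müller glia were at 17.3 ± 9.68 CPM and the *Meis2* side at 16.6 ± 2.73 CPM.

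The photoreceptor level of *Slc6a9* was also seen in single cells. After thinning to 4000 UMIs, 15.7% of rods had a *Slc6a9* UMI (interval 15.03% to 16.5%, 9785 of 15587 rods deep enough to be kept; 19.9% before thinning) and 13.4% of cones, against 3.46% of Müller glia and 3.56% of ganglion cells. Before thinning the shares were 33.0% of cones, 10.2% of Müller glia and 27.8% of ganglion cells, so that ganglion cells were above rods only at their full, larger depth. The median cell held 4693 UMIs in rods, 14733 in Müller glia and 47801 in ganglion cells. 3 genes on the opposite strand overlap *Slc6a9* and were high in photoreceptors, with *B4galt2* at 110 CPM in rods and 84.3 in cones, *Ccdc24* at 84.5 and 76.5, and *Gm17114* at 26.6 and 46.4. Their part in the *Slc6a9* counts of rods and cones was not tested. The 33 astrocytes had *Slc6a9* in 34.4% of thinned cells (interval 18.6% to 53.2%), and no mouse held 10 of them.

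*Slc6a5* held 299.8 ± 16.4 CPM in AII-like cells (n = 7, lowest 287, median 294, highest 335), 150 ± 44.2 CPM on the *Tcf4* side (n = 7, 88.9 to 226) and 86.2 ± 18.8 CPM on the *Meis2* side (n = 8, 62.5 to 119). The steps were 1.05 and 0.83 on the log2 scale, each in 7 of 7 mice (exact p = 0.0156). *Ebf*-positive cells held 30.9 ± 11.5 CPM. Outside amacrine cells *Slc6a5* did not exceed 6.78 CPM.

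*Abat* was spread over glia, epithelium and neurons alike. Müller glia held 286 ± 41.8 CPM (n = 9, lowest 214, median 300.4, highest 334) and RPE cells 279 ± 48.7 CPM (n = 7, 200 to 329), which were not separated (exact p = 0.219). *Ebf*-positive cells held 226 ± 13.6 CPM (n = 8, 214 to 254), the *Meis2* side 198 ± 16.7, the *Tcf4* side 145 ± 16.8 and ganglion cells 140 ± 22.3 CPM. *Ebf*-positive cells were above the *Meis2* side in 8 of 8 mice (exact p = 0.00781), and the *Meis2* side above the *Tcf4* side (exact p = 0.0156). The types with little *Abat* included starburst cells, with 7.97 CPM, horizontal cells with 7.78 CPM and AII-like cells with 24.2 ± 4.07 CPM. Starburst cells thus combined the highest *Gad1* level of any type with one of the lowest *Abat* levels.

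Transcripts of GABA synthesis and of the glycine transporter gene *Slc6a9* were then followed in the same cells. Amacrine cells were thinned to 10000 UMIs and called positive with at least 2 UMIs of *Gad1* and *Gad2* together, or at least 2 UMIs of *Slc6a9*. *Slc6a5* was not scored, so cells given below as positive for the decarboxylases alone may also hold it. Before thinning, a *Slc6a5* UMI was seen in 29.7% of cells on the *Meis2* side and 62.1% on the *Tcf4* side. In starburst cells the share was 4.59%. How many of these cells also held a decarboxylase was not tested. In starburst cells 99.05 ± 2.52% were positive for the decarboxylases alone, and on the *Meis2* side 95.9 ± 1.0%. In AII-like cells 98.8 ± 1.07% were positive for *Slc6a9* alone and 0% for a decarboxylase. *Ebf*-positive cells were positive for *Slc6a9* alone in 74.7 ± 7.17%, for both in 5.92 ± 4.77% and for neither in 18.6%. The *Tcf4* side was mixed: 49.2 ± 7.83% had a decarboxylase alone, 30.9 ± 11.8% *Slc6a9* alone (13.3% to 47.6% by mouse), 17.1 ± 5.66% both (10.5% to 25%) and 2.73% neither. The *Meis2* side had both in 1.92 ± 1.90% of cells. Doublets were not removed by a caller, and their part in the cells with both was not tested.

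**Figure D3:**
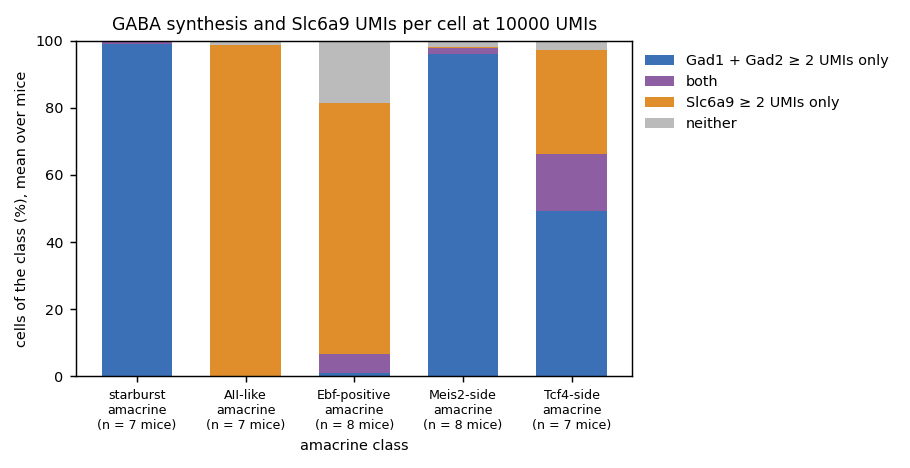
Stacked bars of the share of cells of each amacrine type, in percent as the mean over mice, with at least 2 UMIs of *Gad1* and *Gad2* together, of *Slc6a9*, of both or of neither, in cells thinned to 10000 UMIs. Cells with both reach 17.1% on the *Tcf4* side and 5.92% or less in the other 4 types.

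Smaller groups of amacrine cells were taken by at least 3 UMIs of a single neuropeptide or transmitter gene, or of *Ppp1r17*. They showed further combinations, given as descriptions over all such cells. The 26 cells with *Slc17a8*, the vesicular glutamate transporter 3, were on the *Tcf4* side in 80.8% and held 124 CPM of *Gad1*, 196 of *Gad2*, 169 of *Slc6a9* and 120 of *Slc6a5*. The 104 cells with *Ppp1r17* were *Ebf*-positive in 70.2% and held 463 CPM of *Slc6a9*, 107 of *Slc6a5*, 67.9 of *Slc6a12* and 27.7 of *Gad1*. On the *Meis2* side lay 75.7% of the 37 cells with *Vip*, 95.04% of the 121 with *Nos1*, 85.3% of the 75 with *Npy* and all of the 91 with *Tac1*. *Gad1* was at 422, 394, 534 and 436 CPM in these 4 groups in the same order. *Gad2* was at 378 CPM in cells with *Vip*, 294 in cells with *Nos1*, 172 in cells with *Tac1* and 119.5 in cells with *Npy*. *Slc6a11* was at 923 CPM in the *Vip* cells against 261 with *Nos1* and 275 with *Tac1*. Cells with *Th*, *Cck*, *Penk*, *Sst*, *Gal* or *Crh* numbered 11 or fewer for each gene and are not described.

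Differences between types were then fitted across all genes with edgeR's quasi-likelihood test, with the mouse as a term, control and dKO mice together, and Benjamini-Hochberg adjustment over all genes tested. A gene was called at an adjusted p under 0.05, and fold changes are log2 values with their SE. Other genes of GABA, glutamate and glutamine handling (10 genes) and of glycine and serine metabolism (10 genes) were counted beside the members. Since types differ in a large share of all genes, the share called among all tested genes stands beside each count.

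Amacrine cells against Müller glia (n = 9 mice) gave 6 members higher and 2 lower of 8 tested, where 39.6% of all 13316 tested genes were higher and 34.8% lower. The median change of the members was 4.76, against 0.06 over all genes. *Gad1* was higher by 6.35 ± 0.41 (edgeR adjusted p = 6.05e-09), *Gad2* by 5.51 ± 0.35 (adjusted p = 6.29e-09), *Slc32a1* by 5.69 ± 0.22 (adjusted p = 4.28e-11), *Slc6a5* by 5.26 ± 0.20, *Slc6a12* by 4.25 ± 0.23 and *Slc6a9* by 3.72 ± 0.17. *Slc6a11* (-0.79 ± 0.11, adjusted p = 2.78e-05) and *Abat* (-0.86 ± 0.08, adjusted p = 2.33e-07) were lower in amacrine cells. Of the GABA list 4 genes of 10 were higher and 5 lower, among them *Glul*, the glutamine synthetase (-6.36), *Slc1a3*, a glial glutamate transporter (-5.33) and *Slc38a3*, a glutamine transporter (-4.25). Of 7 tested genes of the glycine list 1 was higher (*Dld*, 0.50) and 4 were lower, led by *Gldc*, the decarboxylase of the glycine cleavage system (-6.40), and *Psat1*, an enzyme of serine synthesis (-3.91).

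Starburst against AII-like cells (n = 7) set a GABAergic against a glycinergic type, and 2 members were higher and 3 lower of 6 tested, where 21.9% of all genes were higher and 23.5% lower. *Gad1* was higher by 8.18 ± 0.16 in starburst cells (edgeR adjusted p = 1.32e-17) and *Slc6a11* by 4.25 ± 0.20. *Slc6a5* (-7.02 ± 0.29), *Slc6a9* (-6.76 ± 0.25, adjusted p = 4.3e-14) and *Slc6a12* (-6.07 ± 0.34) were lower. *Slc32a1* did not pass the test (-0.10 ± 0.15, adjusted p = 0.63). Of the other genes, 1 was higher (*Slc38a2*, 1.604) and 3 lower, among them *Pdxk* (-0.68) and *Aldh5a1* (-0.56), of 6 tested in the GABA list, and 0 of 1 in the glycine list passed.

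The *Meis2* side against the *Tcf4* side (n = 7) had 3 members higher and 3 lower of 8, where 12.6% of all genes were higher and 11.8% lower. *Gad2* (0.96 ± 0.07, edgeR adjusted p = 1.19e-07), *Slc6a11* (0.87 ± 0.09, adjusted p = 5.54e-06) and *Abat* (0.51 ± 0.06, adjusted p = 3.85e-05) were higher on the *Meis2* side. *Slc6a9* (-4.05 ± 0.09, adjusted p = 4.91e-12), *Slc6a12* (-3.89 ± 0.26) and *Slc6a5* (-0.87 ± 0.11, adjusted p = 3.51e-05) were lower. *Gad1* (0.11 ± 0.08, adjusted p = 0.368) and *Slc32a1* (0.24 ± 0.09, adjusted p = 0.0805) did not pass. In the GABA list 3 of 10 genes were higher, among them *Slc38a2* (0.40) and *Slc38a1* (0.31), and 1 lower (*Slc1a3*, -2.10), and in the glycine list 1 of 3 was lower (*Gldc*, -1.18).

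*Ebf*-positive against AII-like cells (n = 7), a comparison of 2 types rich in *Slc6a9*, had 3 members higher and 4 lower of 7, where 23.1% of all genes were higher and 20% lower. *Gad2* (3.88 ± 0.29), *Abat* (3.10 ± 0.09, edgeR adjusted p = 1.26e-14) and *Slc6a11* (1.96 ± 0.21) were higher in *Ebf*-positive cells. *Slc6a12* (-5.23 ± 0.25), *Slc6a5* (-3.17 ± 0.11), *Slc6a9* (-0.57 ± 0.08, adjusted p = 1.25e-05) and *Slc32a1* (-0.40 ± 0.12, adjusted p = 0.0107) were lower. In the GABA list *Slc1a3* (3.92), *Slc38a2* (1.01) and *Slc38a3* (0.58) were higher of 9 tested, and 0 of 1 in the glycine list passed.

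Horizontal cells against amacrine cells (n = 7) had 0 members higher and 8 lower of 8, where 24.2% of all genes were higher and 29.6% lower. Of all calls 44.9% were higher here, and 21.6% when library totals replaced TMM normalization, which moved the median of all genes by -0.30 on the log2 scale. The smallest member difference was in *Slc32a1* (-1.31 ± 0.14, edgeR adjusted p = 9.54e-07). The other 7 members ran from *Slc6a12* (-3.27 ± 0.37) to *Slc6a5* (-5.11), with *Gad1* at -4.98 ± 0.29, *Gad2* at -4.95 and *Slc6a11* at -5.02. In the GABA list *Glul* was higher (0.42) and 5 genes lower, led by *Slc38a1* (-3.17), a transporter of glutamine, and in the glycine list *Shmt2* (2.39) and *Amt* (0.86) were higher and *Psat1* (-1.31) lower of 7. The *Gad1* value rested on few cells, and without the 5% of cells with most UMIs in each mouse it was -8.08.

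Müller glia against rods (n = 9) had 2 members higher and 1 lower of 6, where 37.9% of all genes were higher and 39.2% lower. *Slc6a11* was higher by 5.28 ± 0.11 (edgeR adjusted p = 1.77e-14) and *Abat* by 5.13 ± 0.13 (adjusted p = 1.47e-13) in Müller glia, and *Slc6a9* lower (-1.59 ± 0.16, adjusted p = 4.17e-07). *Gad1* (-0.58, adjusted p = 0.268), *Gad2* (-0.11) and *Slc6a5* (0.19) did not pass. In the GABA list 7 of 10 genes were higher in Müller glia, led by *Slc1a3* (6.29) and *Glul* (6.46), and 1 was lower. In the glycine list 3 of 7 were higher, led by *Gldc* (5.77) and *Psat1* (4.73), and *Dld* was lower (-0.84).

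RPE cells against Müller glia (n = 7) had 3 members higher and 1 lower of 5, where 30.2% of all genes were higher and 33% lower. Of all calls 47.7% were higher, and 35.6% with library totals, which moved the median of all genes by -0.22. The 3 members were *Slc6a13* (9.70 ± 0.28, edgeR adjusted p = 6.11e-15), *Slc6a12* (5.67 ± 0.23) and *Slc6a9* (3.85 ± 0.16), all transporters. *Slc6a11* was lower (-4.85 ± 0.24) and *Abat* did not pass (0.14 ± 0.13, adjusted p = 0.358). *Slc7a10*, which encodes a transporter of small neutral amino acids, glycine and serine among them, was higher by 9.54 ± 0.29 and reached 225 CPM in RPE cells. With *Phgdh* (4.32), *Gldc* (1.18) and *Dld* (0.99) it made 4 higher of 6 tested genes of the glycine list, and *Psat1* (-1.47) and *Psph* (-0.65) were lower. In the GABA list 5 were higher and 4 lower of 10.

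Of the vascular and connective types, pericytes against Müller glia (n = 8) had 0 members higher and 2 lower of 2 tested, *Slc6a11* (-5.89 ± 0.29) and *Abat* (-2.57 ± 0.24), where 27% of all genes were higher and 30.1% lower. In pericytes 2 of 7 genes of the GABA list were higher and 5 lower, and 2 of 2 of the glycine list lower. Fibroblast-like cells against Müller glia (n = 6) had 1 member higher and 2 lower of 4, where 27% were higher and 28% lower. *Slc6a11* (-5.35 ± 0.18) and *Abat* (-2.18 ± 0.19) were lower in fibroblast-like cells and *Slc6a9* did not pass (-0.73, edgeR adjusted p = 0.0778). *Gad1* was called higher (1.99 ± 0.47, adjusted p = 0.00161), with 68.7 CPM in dKO mouse 6 and 3.52 to 7.99 CPM in the others. Without that mouse it was 1.24 (edgeR adjusted p = 0.0710), and without the 5% of cells with most UMIs 1.03 (edgeR adjusted p = 0.0814). In fibroblast-like cells 3 of 9 genes of the GABA list were higher and 6 lower, and 1 of 7 of the glycine list higher and 4 lower.

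Ganglion cells against amacrine cells (n = 9) had 0 members higher and 7 lower of 8, where 31.1% of all genes were higher and 30% lower. *Slc6a5* (-6.04) and *Gad1* differed most, *Slc32a1* was at -5.40, *Gad2* at -3.53 and *Slc6a11* at -1.31. *Abat* did not pass (-0.10 ± 0.06, edgeR adjusted p = 0.155). In the GABA list 3 genes of 10 were higher and 4 lower, and in the glycine list 2 of 7 were higher and 2 lower.

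Genes with the most similar pattern to each member were sought among 7687 genes with at least 50 CPM in some type, by Pearson's r of mean log2(CPM + 1) over the 17 types, which share mice and depth. For *Gad1* these were *Cpne5* (0.89), *Grm2* (0.88) and *Gm47352* (0.84), and for *Gad2* they included *Gm1715* (0.95) and *Cbln2* (0.93). *Slc32a1* was closest to its antisense partner *Gm14204* (0.99), then *Gm47710* and *Cacng3* (0.93 each). *Slc6a11* was closest to *Pak3* (0.89), *Epha5* (0.84) and *Cdh10* (0.82). *Slc6a12* and *Slc6a9* shared *4930444A19Rik* as the closest gene (0.91 and 0.88), followed by *Ppp1r37* (0.85) and *Gm49164* (0.81) for the former and *Lgr5* (0.74) and *Lamp5* (0.73) for the latter. *Slc6a13* was closest to *Gm8637* (0.997), *Gm50011* (0.996) and *Slc7a10* (0.99), all high in RPE cells. For *Slc6a5* the list gave *Zfp385c* (0.91), an unnamed gene (0.90) and *Necab1* (0.87), and for *Abat* *Zdbf2* (0.87), *Sema4a* (0.86) and *Fads2* (0.85).

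The dKO and control mice were compared within 15 types by edgeR's quasi-likelihood test without a block, with Benjamini-Hochberg adjustment over all genes tested. In amacrine cells as a whole (5 dKO and 4 control mice) 0 of 8 tested members were called, and 0% of 15033 genes. At an unadjusted p under 0.05 there were 280 genes, and DESeq2, run as an alternative, called 0 to 4 genes in the types other than horizontal cells and 17 in horizontal cells. The median change of the members was -0.02, against 0.01 over all genes. *Gad1* changed by 0.11 ± 0.11 on the log2 scale, *Gad2* by -0.01 ± 0.12, *Slc32a1* by -0.02 ± 0.14, *Slc6a11* by 0.06 ± 0.12, *Slc6a12* by -0.39 ± 0.21, *Slc6a9* by -0.10 ± 0.13 and *Abat* by -0.01 ± 0.07. *Slc6a5* changed by -0.30 ± 0.12, with 105, 148, 118 and 102 CPM in control and 93.0, 99.6, 84.4, 109 and 102 CPM in dKO mice, which overlap.

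In the amacrine types, 0 members were called of 3 tested in starburst cells (0% of 6468 genes, 233 at an unadjusted p under 0.05), 6 in AII-like cells (0% of 9411, 282), 7 in *Ebf*-positive cells (0% of 9901, 268), 7 on the *Meis2* side (0% of 13822, 357) and 8 on the *Tcf4* side (0% of 10518, 363). In starburst cells *Gad1* was at 715, 932 and 756 CPM in control mice and 857, 647, 763 and 776 CPM in dKO mice, a change of -0.06 ± 0.14. In AII-like cells *Slc6a9* was at 776 ± 32.7 CPM in control (n = 3) and 784 ± 102 CPM in dKO mice (n = 4), *Slc6a12* at 229.6 ± 26.5 and 209 ± 10.2 CPM, and *Slc6a5* at 305 ± 26.0 and 296 ± 6.05 CPM. On the *Meis2* side *Gad2* was at 304 ± 14.97 CPM in control (n = 3) and 299 ± 48.0 CPM in dKO mice (n = 5).

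A few members reached an unadjusted p under 0.05 without passing the adjustment. On the *Tcf4* side *Gad1* was at 587, 651 and 578 CPM in control and 534, 445, 555 and 368 CPM in dKO mice (-0.35 ± 0.14). *Slc6a11* was at 386, 373 and 401 against 299, 274, 361 and 349 CPM (-0.27 ± 0.12), and *Slc6a5* at 181 ± 39.8 against 126 ± 33.9 CPM (-0.49 ± 0.20). For *Gad1* and *Slc6a11* there, 2 of 8 tested members, all dKO mice were below all control mice. That was so for 2.17% of the 10518 tested genes, and 2.47% had all dKO mice above, in a comparison that called 0% of genes. On the *Meis2* side *Slc6a11* was at 551, 530 and 638 CPM in control and 673, 608, 681, 726 and 642 CPM in dKO mice (0.22 ± 0.09). In *Ebf*-positive cells *Gad1* was low throughout and passed the filter through 3 dKO mice, with 0 of 3 control mice over its cutoff, at 2.95, 0.849 and 1.80 CPM against 3.57, 11.1, 15.98, 1.73 and 17.8 CPM (2.40 ± 0.71), from 5, 1 and 2 UMIs against 1, 22, 14, 2 and 23 UMIs. The edgeR adjusted p of these 5 was 0.9998 or more.

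**Figure D4:**
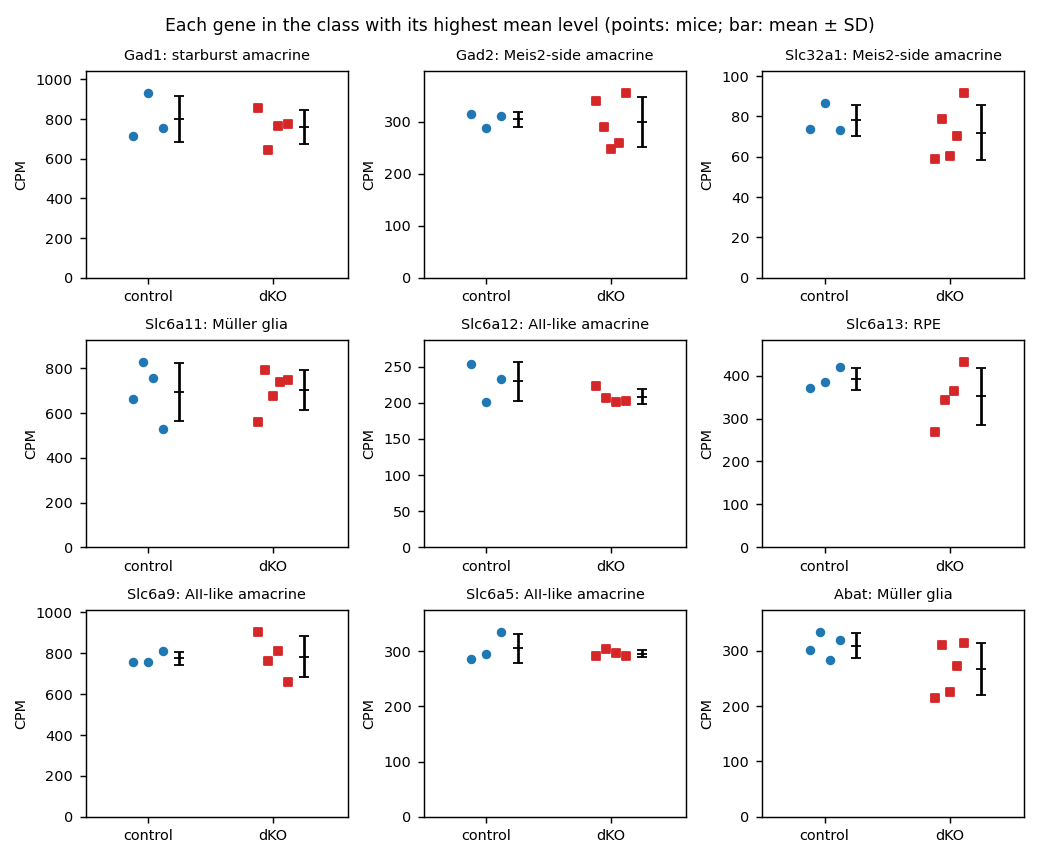
CPM of each of the 9 genes in control and dKO mice, each in the type with its highest mean level, with 1 point per mouse and a bar for the mean ± SD, on axes that start at 0. Control and dKO mice overlap in each of the 9 panels.

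Outside the amacrine cells, 0 members were called in Müller glia of 6 tested (0% of 12934 genes, 286 at an unadjusted p under 0.05), in RPE cells of 5 (0% of 8516, 391), in rods of 8 (0% of 13351, 540), in cones of 5 (0% of 11381, 370), in bipolar cells of 8 (0% of 14459, 270), in ganglion cells of 5 (0% of 12072, 332) and in fibroblast-like cells of 1 (0% of 6142, 243). In pericytes no member passed the filter on low counts (0% of 3481 genes, 150). In Müller glia *Slc6a11* was at 662, 827, 756 and 530 CPM in control and 561, 794, 676, 741 and 750 CPM in dKO mice. *Abat* was at 300.4, 334, 284 and 319 CPM against 214, 309, 225, 273 and 315 CPM (-0.21 ± 0.14). These groups overlapped for both genes.

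RPE cells are the type that the Cre is driven in. *Slc6a13* was at 372, 384 and 420 CPM in control and 270, 343, 365 and 431 CPM in dKO mice (-0.15 ± 0.23), and the groups overlapped. *Abat* was at 311 ± 16.7 against 254 ± 52.2 CPM, *Slc6a9* at 192 ± 15.5 against 175 ± 32.3 CPM and *Slc6a12* at 72.3 ± 11.6 against 61.1 ± 33.6 CPM. *Slc6a11*, low in this type, had the lowest unadjusted edgeR p (0.0169, log2 change 1.13 ± 0.42). No gene of the GABA list or the glycine list was called between dKO and control mice in any of the 15 types.

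Horizontal cells were the exception. There 1 of 4 tested members was called, *Gad1*, among 5 genes called of 8427 (0.0593%, with 374 at an unadjusted p under 0.05). *Gad1* was at 1.41, 2.46 and 3.51 CPM in control mice 1 to 3 and at 24.7, 20.01, 12.99 and 22.4 CPM in dKO mice 6 to 9, and the groups did not overlap. The log2 change was 2.95 ± 0.43 (edgeR adjusted p = 0.0137). *Gad1* passed the filter on low counts through the dKO mice alone, with 4 of 4 dKO mice and 0 of 3 control mice over the filter's cutoff, so that a gene at the control level would not have been tested, and the call is not independent of the difference. The UMIs of *Gad1* were 2, 4 and 4 in control and 28, 12, 21 and 17 in dKO mice. With no filter on low counts the log2 change was 2.93 (edgeR adjusted p = 4.16e-07), in a fit that called 139 genes. All dKO mice were above all control mice in 3.42% of the 8427 genes, and all below in 1.79%. Control mouse 4 (5 cells, 0 UMIs) and dKO mouse 5 (7 cells, 31.7 CPM) had too few cells to enter the fit. Without control mouse 1 the adjusted p was 0.158 and without control mouse 2 it was 0.156 (edgeR, log2 changes 2.67 and 2.97).

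The *Gad1* UMIs of each dKO mouse came almost wholly from 1 horizontal cell. That cell held 8 of 9 *Gad1* UMIs in dKO mouse 5, 25 of 28 in mouse 6, 11 of 12 in mouse 7, 19 of 21 in mouse 8 and 16 of 17 in mouse 9, where the type had 7, 25, 17, 44 and 21 cells. In control mice the top cell held at most 2 *Gad1* UMIs. The top cells of dKO mice also held 50 to 73 *Meis2* UMIs, 3 to 12 of *Gad2* and 4 to 17 of *Slc6a11*, beside 7 to 26 UMIs of the horizontal cell gene *Onecut1*. In the control top cells *Meis2* was at 0 to 2 UMIs and *Gad2* at 0. A single horizontal cell with 20 or more *Meis2* UMIs was found in each dKO mouse and 0 in control mice. Of the 5 amacrine markers, 3 to 4 were detected in the dKO top cells and 2 to 3 in the control ones. Their summed level per 10000 UMIs was 9.14 to 18.2 against 10.8 to 15.7. The other horizontal cells of each mouse held 11.6 to 15.4, and amacrine cells as a whole 16.2 as a mean over cells. Horizontal and amacrine cells are thus close in this sum, and it cannot tell what the top cells are. *Tfap2a* was at 2 to 19 UMIs against 0 to 2, and *Tfap2b* at 17 to 76 against 34 to 50. *Tfap2c* and *Elavl2* were both at 0 in the control top cells and that of dKO mouse 6, and either was detected in the other dKO top cells. In control mouse 4 no horizontal cell held a *Gad1* UMI, so that gene did not set its top cell. The top cells held 37023 to 77365 UMIs in dKO mice and 47984 to 58120 in control mice 1 to 3, and the median horizontal cell of a mouse held 34576 to 44311 UMIs. Whether the top cells of dKO mice are doublets of 2 cells was not tested.

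**Figure D5:**
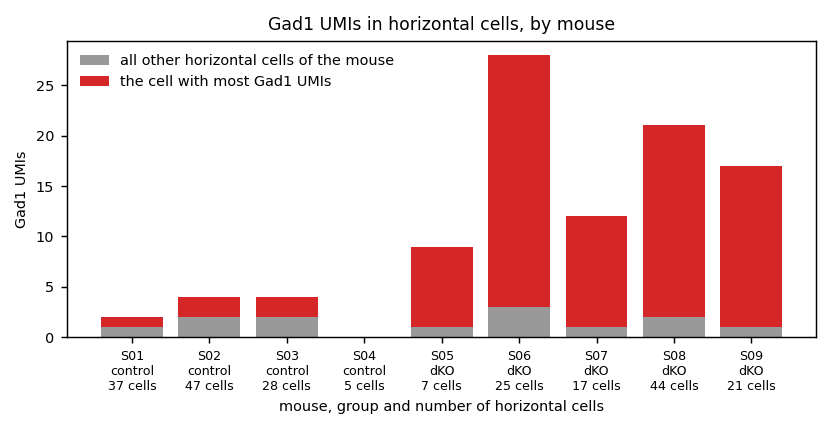
*Gad1* UMIs of horizontal cells per mouse, as bars split into the cell with most *Gad1* UMIs and all other cells (S01 to S09 are mice 1 to 9). In the 5 dKO mice 1 cell holds 8 to 25 UMIs and the other cells 1 to 3, and in control mice no cell holds over 2.

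Without that cell in each mouse *Gad1* was at 0.731, 1.27 and 1.85 CPM in control mice 1 to 3 and 2.84, 1.89, 1.29 and 1.39 CPM in dKO mice 6 to 9, which overlap. It then fell below the filter on low counts, 0 members were called, and 1 gene was called in all. With all horizontal cells kept, the other tested members, *Slc6a11*, *Slc32a1* and *Slc6a9*, did not pass. *Slc6a11* was at 3.51, 3.07 and 6.14 CPM in control and 7.94, 21.7, 16.1 and 23.7 CPM in dKO mice (1.96 ± 0.44, edgeR adjusted p = 0.339), and it too passed the filter through dKO mice alone. *Gad2* was at 0, 0.615 and 0 CPM against 7.94, 18.3, 3.71 and 17.2 CPM and was not tested. *Abat*, also not tested, was at 2.81 to 6.14 CPM in control and 6.80 to 16.7 CPM in dKO mice, which did not overlap. All dKO mice were above all control mice in 3.42% of the tested genes. *Slc6a12*, *Slc6a13* and *Slc6a5* were not tested either, and their groups overlapped. *Slc32a1*, the member that horizontal cells hold at the highest level relative to amacrine cells, was at 21.6 ± 4.42 against 23.9 ± 9.30 CPM (0.08 ± 0.29). For *Slc6a9* (-0.93) single cells also weighed heavily, with 22 of 29 UMIs of control mouse 1 and 18 of 19 of control mouse 2 in 1 cell each.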

How the data were processed

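Papain-dissociated retina and RPE cells of 9 mice were profiled by combinatorial barcoding of polyA RNA. The authors aligned reads to GRCm39 and deposited raw UMI counts per gene and cell, not normalized, after discarding cells in which few genes were detected and rarely detected genes (R 4.2.2 and Seurat 4.3.0 per the submitters' notes). The deposited cluster column holds barcoding wells and was not used. All 31089 cells were used, with no doublet caller.

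Cells were placed in types by how many markers of a type they held (at least 2 to 4) and by marker UMIs per 10000 (at least 10, 20, 40 or 100). Cells that met no gate (5.04%) or more than 1 (3.85%) entered no comparison. The members, marker and gene lists were chosen with earlier results of these data known, and the gate thresholds after seeing the data. UMI counts were summed per mouse and type for mice with at least 10 cells of the type, and tested with edgeR 4.0.16 (R 4.3.3; TMM, filterByExpr, glmQLFit, glmQLFTest; adjusted p under 0.05 by Benjamini-Hochberg over all genes), with the mouse as a term between types. SEs were derived from the F statistics. The pipeline was tested on simulated data. Alternatives were DESeq2 1.42.0, library totals, no filter, a stricter gate, removal of the 5% of cells with most UMIs, and leaving out mice. Summing dKO mice 6 and 7 was an alternative between dKO and control mice only. Fits between types and the exact tests counted them as separate mice throughout. Levels, thinned shares and exact tests were computed in Python 3.11.15 with scipy 1.17.1 (seed 7). Named genes were all 9 members, the genes of 2 fixed pathway lists that passed the test (up to 5 in each direction) and the 3 most similar genes, some of which are counted but not reported by name here. Each sample is the retinas of 1 mouse per the study's methods, although the labels give mice 6 and 7 the same animal number. Intervals cover counting error only. Gene positions are from GENCODE M39 and promoter windows from RefSeq.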

Additional observations from a re-analysis of the deposited data

Results flagged for a closer look

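3 of 42 groups of 4 to 10 mice had 1 mouse far from the others by Dixon's test, and chance flags about 1 group in 20. *Abat* in ganglion cells was at 105 CPM in control mouse 4 (10 cells), against 155 CPM or more in the other 3 control mice. *Slc6a11* in ganglion cells was at 115 CPM in dKO mouse 5 (31 cells), against 160.4 CPM or more in the other 4 dKO mice. Both are among the mice that were shallow and rich in rods. *Abat* in pericytes was at 151 CPM in control mouse 2 (16 cells), against 40.6 CPM or less in the other 3 control mice.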

How the results depend on the processing

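No paired analysis was possible because control and dKO mice share no replicate number. Between types, members called stayed within 1.5 times of the reported number except without the filter on low counts, which gave 5 in place of 3 for Müller glia against rods and for fibroblast-like cells against Müller glia. Between dKO and control mice the number of members called moved in *Ebf*-positive cells without the filter (1 in place of 0) and in horizontal cells, where it was 3 without the filter, 0 without the 5% of cells with most UMIs, 0 without the horizontal cell of each mouse with most *Gad1* UMIs (chosen after seeing the data), and 0 to 1 when each mouse was left out in turn. The cause was not tested, beyond the cell counts given in the report.

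In amacrine cells as a whole, changes near 0 between dKO and control mice turned sign, and none was called. With the stricter gate *Gad2* was at 0.0525 and *Abat* at 0.0049. Without the 5% of cells with most UMIs *Gad2* was at 0.0813, *Slc32a1* at 0.0095 and *Abat* at 0.0994. With dKO mice 6 and 7 as 1 mouse *Gad2* was at 0.0479. Without control mouse 4 and dKO mice 5 and 7 *Gad1* was at -0.0167, *Gad2* at 0.0207, *Slc32a1* at 0.0127 and *Abat* at 0.0089. Leaving out each mouse in turn gave -0.0979 to 0.0696 for *Gad2*, -0.109 to 0.0612 for *Slc32a1*, -0.0340 to 0.0069 for *Abat* and -0.0279 to 0.175 for *Slc6a11*. *Gad1* in horizontal cells ranged from 2.67 to 3.22 when 1 mouse was left out.

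Without the filter the genes called between dKO and control mice came to 0 to 144 by type, with the stricter gate to at most 28, without the 5% of cells with most UMIs to at most 15, and without the 3 shallow mice to at most 6. The count for *Ebf*-positive against AII-like cells was 1690 with the stricter gate against 4100, for pericytes against Müller glia 5865 without the filter and 4464 without the shallow mice against 2956 (leaving out those mice between types was chosen after seeing the data), and without the 5% of cells with most UMIs 3797 against 7634 for ganglion and 4142 against 6344 for horizontal cells against amacrine cells. Of 35 shares of cells with a UMI, 33 moved when cells were thinned, and the share of cells with *Slc6a9* then stood higher in rods than in ganglion cells, the reverse of the order at full depth. Few cells of a type per mouse limit the low members most.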

Other observations

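The cells that met no gate (1566 cells) and those that met more than 1 (1197 cells) belong to no comparison and held members too (n = 9 mice). Cells with no type held 156 ± 28.7 CPM of *Gad1*, 116 ± 25.9 CPM of *Gad2*, 227 ± 59.7 CPM of *Slc6a11* and 107 ± 21.7 CPM of *Abat*. Cells in more than 1 gate held 241 ± 94.7 CPM of *Slc6a11*, 133 ± 63.5 CPM of *Abat* and 85.0 ± 94.8 CPM of *Slc6a13*. Microglia reached 10 cells in 2 mice (25 cells), where *Gad1*, *Gad2*, *Slc32a1*, *Slc6a12*, *Slc6a13* and *Slc6a5* had 0 UMIs and *Slc6a11*, *Slc6a9* and *Abat* 1 UMI each.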
